A study of Mus musculus with 7 samples.

Results

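The stomach primordium of mouse embryos at embryonic day 9.5 (E9.5) was compared with the adult mouse stomach, gene by gene, on 1 one-colour Agilent array each. These are 2 of the 7 arrays of the series, chosen by their labels alone. Both tissues came from ICR mice, an outbred laboratory strain, and no genotype or treatment was given for either. Adult organs were taken fresh and used at once. How many embryos or adults went into each RNA sample, the age of the adults and the part of the stomach taken were not given in the sources used here. The other 5 arrays held adult esophagus, lung and intestine and gastric tissue derived in culture from ES (embryonic stem) cells, sampled at culture day 42 after growth with FGF10, Wnt3a, Noggin and R-spondin1 and, after a further stretch in Shh and Bmp4, at day 46. A level below is the log2 processed intensity of a gene's probe minus the 75th percentile of its array, so 0 is that percentile and 1 unit is 2-fold. A difference is the E9.5 level minus the adult level.

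The stomach forms from a stretch of foregut: a tube of endoderm wrapped in mesoderm. At the stage sampled the endoderm is a simple, dividing layer that has been given regional identity by transcription factors such as Sox2, and the mesoderm around it expresses Barx1. In the adult, the glandular mucosa is built of surface mucous, neck, parietal, chief and endocrine cells, the rodent forestomach is lined by cornifying squamous epithelium, and a thick muscle wall, nerves, vessels and immune cells surround both.

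Each side rests on 1 array, so no test was possible and no value here has an error between animals. The technical spread was known in part. Probes printed in 8 or more spots had a median SD of 0.08 on the E9.5 array and 0.09 on the adult array (241 probes each), and the differences given by different probes of the same gene had a pooled SD of 0.63. The E9.5 array was on a slide of its own and the 4 adult organs shared another, so slide and stage cannot be told apart. On the E9.5 array 82.1% of the 17044 named genes were above background, and on the adult array 85.2%. The defining markers fixed for adult stomach, 8 in all, were all above background on the adult array and 5 of them on the E9.5 array, each at least 4-fold lower there. The 8 markers of embryonic stomach were above background on both arrays, with 1 of them 4-fold or more up and 2 as far down in the embryo.

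Of 15093 genes above background on at least 1 of the arrays, 1736 (11.5%) stood 4-fold or more above the adult level in the E9.5 stomach, and 2739 (18.1%) stood 4-fold or more below it. These shares are the background for every count at 4-fold below; at 2-fold, 27.3% of genes were higher and 29.8% lower. The large differences lay mostly on the adult side: 1160 genes were at least 16-fold lower in the embryo and 355 at least 16-fold higher, and 520 against 62 at 64-fold. A gene above background on 1 array only has a bound rather than a fold, written "at least"; it sets the gene against the higher of its own signal and the lowest signal above background on the dim array. Such bounds made up 209 of the higher and 693 of the lower calls. A bound holds for the background subtraction used here and was smaller for some genes with another, as given for Cblif below. Where a called gene had further probes, 1671 of 1712 of them (97.6%) pointed the same way. Genes higher in the embryo were 38.8% of all calls. That split depends on the scale: with each array centred on its median instead of its 75th percentile, 2881 genes were higher and 2139 lower (57.4% higher), because the median of all genes moved from -0.02 to 0.54. In whole tissue, fewer cells of a type and less RNA per cell cannot be told apart.

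**Figure D1:**
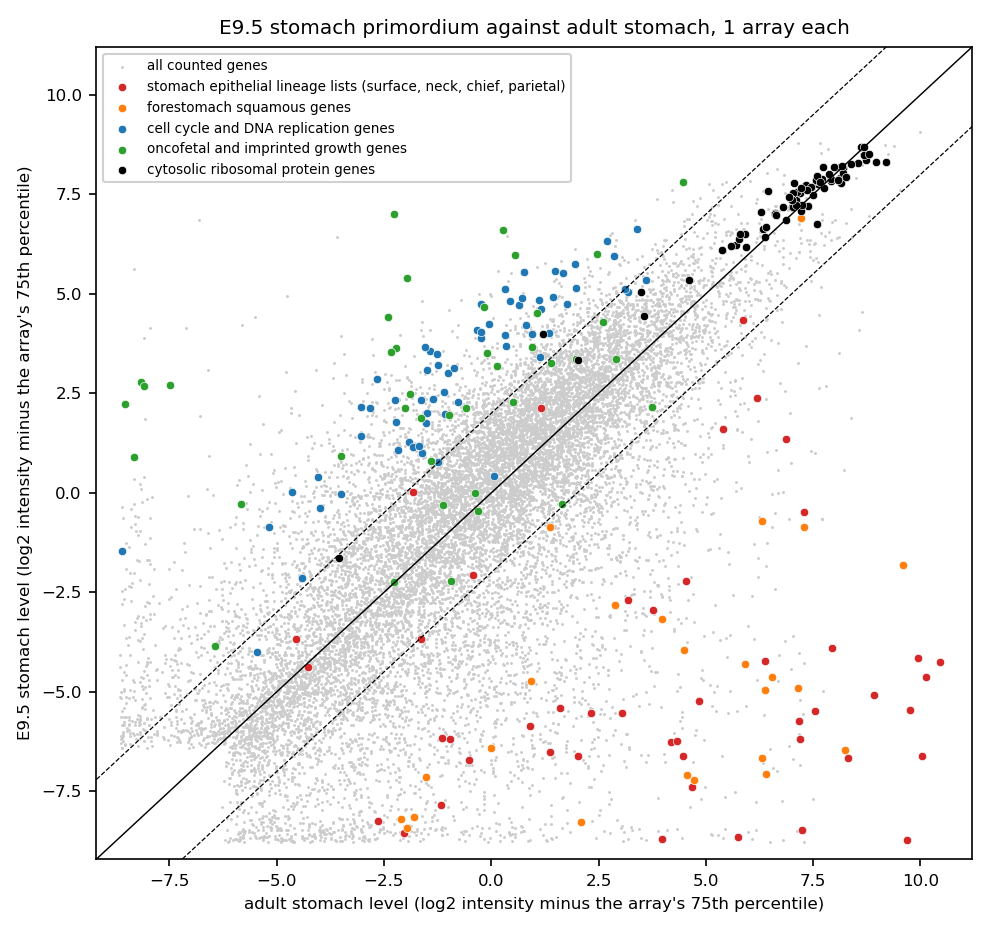
Level of every counted gene on the adult stomach array (x axis) and the E9.5 stomach array (y axis), in log2 intensity minus the array's 75th percentile, with 1 point per gene, the line of equality and dashed lines at 4-fold. Most gastric lineage and squamous genes lie along the lower right, most cell cycle, replication and oncofetal genes and 13 of 23 imprinted genes above the upper dashed line, and ribosomal protein genes close to the line of equality.

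Products of the adult gastric glands were among the largest differences of the comparison, together with genes of the squamous forestomach. No gene of the lists for surface mucous, mucous neck, chief and parietal cells was at least 4-fold higher in the embryo. The surface mucous list was lower in all 14 of 14 members, with a median difference of -10.53. It was -8.04 with normexp, a model-based subtraction of each spot's local background. Gkn2, a gastrokine secreted by surface cells, stood at 9.68 in the adult and was not above background in the embryo, at least 71178-fold lower. Gkn1, another gastrokine, stood at 3.98 in the adult with a bound of -10.41. Tff1, the trefoil peptide that protects the gastric surface, stood at 10.44 in the adult and at -4.26 in the embryo, where it was still above background, a difference of -14.70. Muc5ac, the main secreted mucin of the gastric surface, differed by -11.84 between levels of 7.94 and -3.90, and a further probe gave -5.33. The aspartic protease gene Ctse and the tight junction gene Cldn18 differed by -10.61 and by a bound of -10.46. Fut2, a fucosyltransferase of mucosal secretions, lay nearest to the threshold at -2.04 (-1.47 with median centring). All 5 neck cell genes counted were lower; Tff2, the trefoil peptide of neck cells, stood at 8.31 in the adult and was not above background in the embryo, a bound of 27398-fold. The named mucin genes followed, with 7 of 7 at least 4-fold lower and a median of -3.59 (-2.09 with normexp). Muc6, a member asked for in the neck cell list, and the mucins Muc2 and Muc16 were not among the named genes and were not counted.

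The chief cell list, the enzyme-secreting cells at the gland base, had 7 of 9 members lower and a median of -13.67. That median was -10.57 with normexp and -10.07 over the genes above background on both arrays. Pgc, which encodes the protease precursor pepsinogen C, had the largest bound of the whole comparison: it stood at 10.04 in the adult, was not above background in the embryo, and was at least 91336-fold lower there. Cblif, the gastric intrinsic factor that carries vitamin B12, was at least 13041-fold lower. Its bound of -13.67, which is also the median of the list, was -10.57 with normexp. Chia1, an acidic chitinase of chief cells, differed by -13.99, and Pga5, another pepsinogen, by -10.07. Bhlha15, the transcription factor that shapes secretory cells, differed by -6.70, but a further probe gave -1.11. Lipf, gastric lipase, was low on both arrays at -3.66 and -4.56, and Tnfrsf19, a receptor of gland base progenitors, stood at 2.14 and 1.17. The colipase gene Clps and the phospholipase gene Pla2g1b, which pancreatic acinar cells also express, differed by -14.75 and -15.22. These were the largest differences among genes above background on both arrays. Clps and Pla2g1b are members of the chief cell list and enter its count and median. Pla2g1b is also counted among the pancreatic genes below. Other acinar enzymes were present on the adult array as well: Pnliprp1, a pancreatic lipase relative, stood at 3.95 in the adult and -3.23 in the embryo, and the trypsinogen Prss2 at 1.24 and -5.86. Of the 21 pancreatic genes counted, 12 were lower and 3 higher in the embryo, with 20 of 22 named members above background in the adult and 17 in the embryo. The part of pancreatic RNA in the chief cell result was not tested.

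Of 19 genes of the acid-making parietal cells 15 were lower, with a median of -5.52 (-4.20 with normexp). Atp4b and Atp4a, the subunits of the gastric proton pump, stood at 9.94 and 7.55 in the adult and at -4.15 and -5.47 in the embryo, differences of -14.09 and -13.02. The potassium channel subunit Kcne2, which recycles potassium for the pump, was not above background in the embryo and was bounded at -12.18, and the pore subunit Kcnq1 differed by -6.77. Slc26a9, an apical chloride channel, was bounded at -10.58. Car2, the carbonic anhydrase that supplies protons, was present on both arrays at 1.35 and 6.87. Ezr, the membrane linker ezrin, differed by -3.81 and the anion exchanger Slc4a2 by -3.80. Ckb, brain-type creatine kinase, stood at 4.35 in the embryo and 5.85 in the adult, and the gastrin receptor Cckbr at -4.36 and -4.28, though a further Cckbr probe gave -5.58.

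Endocrine genes were split. Of 28 counted, 10 were lower and 5 higher, and the median of -0.52 became 0.05 with median centring. On the adult side, Ghrl, the hunger hormone ghrelin, stood at 7.74 in the adult and -4.98 in the embryo, Hdc, which makes histamine, at 3.17 and -6.05, Chga, chromogranin A, at 6.55 and -0.86, and Sst, somatostatin, at 5.35 and -0.12. Gast, gastrin, was low on both arrays at -4.25 in the embryo and -3.66 in the adult. Members on the embryo side included transcription factors of endocrine and neural fate. Neurod1 was not above background in the adult and stood at -2.97 in the embryo, a bound of 3.35, and Insm1, Nkx2-2 and Pax6 were higher by 2.28, 2.34 and 3.41. With normexp all 4 fell under 4-fold, to 0.59, 1.12, 0.67 and 0.96. Several of these factors also act in the neural tube, whose other genes were present on the E9.5 array (31 of 34 named above background, against 20 on the adult array), and their part here was not tested.

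**Figure D2:**
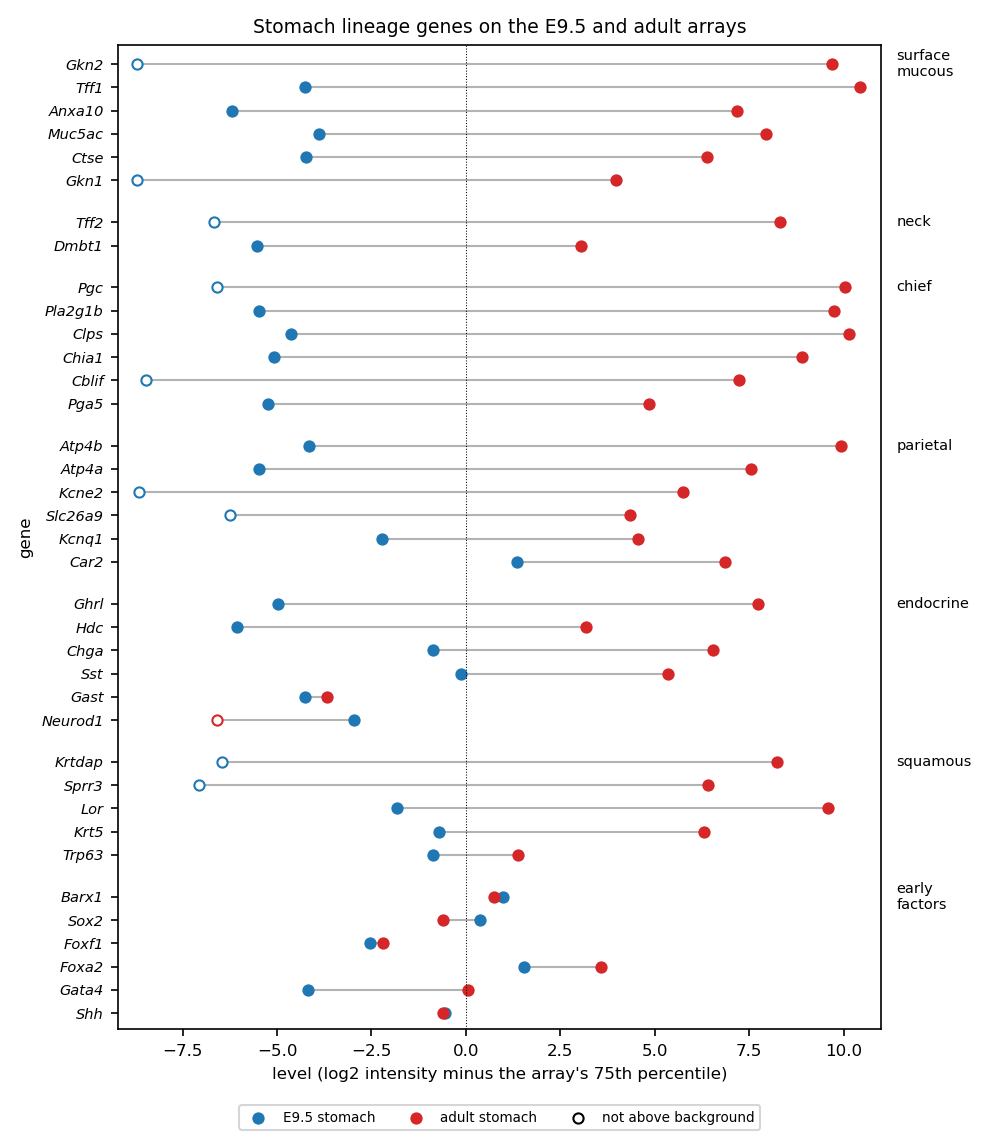
Levels (x axis, log2 intensity minus the array's 75th percentile) of stomach lineage genes (y axis) on the E9.5 array and the adult stomach array, with 1 point per array joined by a line and open points where the gene was not above background. The points of Tff1, at -4.26 and 10.44, are far apart, whereas those of Barx1 at 0.98 and 0.76 and Shh at -0.56 and -0.61 nearly coincide.

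The promoters of 4 genes from the gland cell lists and 2 from the cell cycle list are shown here, to set products of mature gland cells beside genes of the dividing cell. They are the 150 bases before the transcription start in RefSeq for Pgc (chr17:47726692-47726841, plus strand), Gkn1 (chr6:87350916-87351065, minus strand), Gkn2 (chr6:87373215-87373364, plus strand), Atp4a (chr7:30712059-30712208, plus strand), Cdk1 (chr10:69352913-69353062, minus strand) and Ccnb1 (chr13:100786487-100786636, minus strand), all in build GRCm38.p6 and printed 5′ to 3′ along the gene. Capitals mark TATAAA, the core of the TATA box, CCAAT, the letters bound by NF-Y, TTTGAA, a form of the cell cycle homology element, and AGATAA, letters bound by Gata factors, searched on both strands with no overlap between them.
Pgc: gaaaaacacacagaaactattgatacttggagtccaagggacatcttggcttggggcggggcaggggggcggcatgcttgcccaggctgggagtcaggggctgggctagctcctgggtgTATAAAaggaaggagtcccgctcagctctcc
Gkn1: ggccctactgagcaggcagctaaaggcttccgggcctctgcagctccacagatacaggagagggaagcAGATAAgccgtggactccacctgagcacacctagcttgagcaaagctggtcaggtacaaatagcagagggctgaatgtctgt
Gkn2: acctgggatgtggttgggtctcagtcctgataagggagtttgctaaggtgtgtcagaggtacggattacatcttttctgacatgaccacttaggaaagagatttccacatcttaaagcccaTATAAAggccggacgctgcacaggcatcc
Atp4a: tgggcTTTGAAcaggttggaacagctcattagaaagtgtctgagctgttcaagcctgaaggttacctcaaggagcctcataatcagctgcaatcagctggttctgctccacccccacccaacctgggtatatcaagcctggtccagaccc
Cdk1: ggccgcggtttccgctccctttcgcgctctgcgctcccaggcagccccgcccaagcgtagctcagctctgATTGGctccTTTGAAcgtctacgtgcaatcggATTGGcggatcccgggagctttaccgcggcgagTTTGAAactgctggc
Ccnb1: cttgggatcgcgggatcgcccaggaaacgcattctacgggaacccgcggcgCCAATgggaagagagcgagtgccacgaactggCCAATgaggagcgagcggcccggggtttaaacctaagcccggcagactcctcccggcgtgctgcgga
TATAAA began 31 bases before the start of Pgc and 29 before that of Gkn2. AGATAA began 82 bases before the start of Gkn1. Cdk1 held CCAAT on the other strand at 80 and 48 bases and TTTGAA at 71 and 15 bases, and Ccnb1 held CCAAT at 99 and 67 bases. In Atp4a only TTTGAA was found, at 145 bases. Over the same 150 bases of all 32851 promoters in the table, 7.57% held TATAAA, 24.5% CCAAT, 9.07% TTTGAA and 5.65% AGATAA. A match describes the letters and is not a bound site. Only these exact letters were searched, so small letters may hold other forms of the same elements. Promoters were listed for 79.6% of the counted genes and 76.9% of the lower ones, under the share set for comparing gene sets, so no such comparison is given.

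The cornified lining of the forestomach was also an adult feature. Of 24 squamous genes counted, 23 were lower in the embryo, with a median of -8.29. Lor, loricrin of the cornified envelope, stood at 9.59 in the adult and -1.82 in the embryo. Krtdap, a peptide of differentiating keratinocytes, was at least 26284-fold lower. Krt1 and Krt10, the keratin pair of cells leaving the basal layer, differed by -12.05 and -11.18. Basal layer genes differed less and were above background in the embryo: the basal keratins Krt5 and Krt14 by -7.02 and -7.17, and Trp63, the master factor of stratified epithelia, by -2.24 between levels of -0.87 and 1.38 (-1.67 with median centring). Sprr2a1, a small proline-rich envelope protein, was the exception at 6.91 and 7.21, but it belongs to a family of near-identical genes and a further probe gave -10.44. All 14 named Lce genes, the late cornified envelope family, were at least 4-fold lower, between -4.41 and -13.71; their copies are so alike that single members are uncertain. Over the keratin family 21 of 33 counted genes were lower and none was higher by 4-fold. The keratins of simple epithelium, Krt8 and Krt18, were high on both arrays but also lower in the embryo, at 3.52 and 4.47 there and 8.10 and 7.64 in the adult.

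Genes common to epithelia were lower in the embryo in 15 of 21 cases, with a median of -3.83. Cdh1, the adhesion molecule E-cadherin, stood at -1.68 in the embryo and 3.64 in the adult, and Epcam at -1.54 and 1.91. The splicing regulators Esrp1 and Esrp2 differed by -3.43 and -5.74, and Elf3 and Ehf, Ets factors of mature epithelia, by -6.46 and a bound of -8.09. Cldn6, a claudin of embryonic epithelia, went the other way: it stood at -0.91 in the embryo and was not above background in the adult, a bound of 5.40 that fell under 4-fold, to 1.97, with normexp. Cldn7 and Cldn3, other tight junction claudins, were higher by 1.52 and 1.19. The claudin family as a whole had 2 of 18 higher and 5 lower with a median of -0.05 (0.52 with median centring). Aquaporins had 5 of 9 lower and none higher, led by the water channels Aqp3 at -6.76 and Aqp4 at -6.75.

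Transcription factors of the early foregut lay on both sides. Of 31 endoderm and foregut factors counted, 5 were higher and 9 lower, and the median of -0.61 was -0.04 with median centring. Sox2, which marks the foregut and later the stomach, stood at 0.38 in the embryo and -0.62 in the adult. Foxa2, a pioneer factor of endoderm, stood at 1.55 and 3.57 (a difference of -1.46 with median centring), and its relatives Foxa1 and Foxa3 differed by -3.44 and a bound of -8.19. On the adult side were the gut epithelial factors Klf4 at -6.69, Klf5 at -4.75 and Hnf4a at a bound of -6.98, with further Hnf4a probes between -3.53 and -1.23. Gata4, a factor of glandular stomach and heart, stood at -4.18 in the embryo and 0.05 in the adult, and a further probe gave -2.76. On the embryo side were Onecut1 and Onecut2, factors of the foregut organs, at 4.99 and 3.68, Pax9, a factor of the pharyngeal foregut and somites, at 4.16, and Nkx2-1, the lung and thyroid factor, at a bound of 2.98 (0.48 with normexp). Pdx1, which marks the antrum, duodenum and pancreas, was not above background in the embryo and stood at -5.83 in the adult. For Sall4 the probe used gave -0.68 and a further probe 7.82, so its direction is uncertain.

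The mesenchymal factors leaned to the embryo, with 19 of 44 at least 4-fold higher, 1 lower and a median of 1.85 (1.19 with normexp). Barx1, the factor of stomach mesenchyme, was at nearly the same level on both arrays (0.98 and 0.76), as were Foxf1 (-2.54 and -2.20) and Nkx2-3 (-3.06 and -2.98), factors of gut mesenchyme. Tbx5, a T-box factor of heart, forelimb and foregut mesoderm, stood at 1.85 in the embryo and was not above background in the adult, a bound of 8.17, with 2.39 from a further probe. Tbx5 is also counted among the T-box and heart genes below. Prrx2 differed by 5.73, Twist1 by 5.52, Msx2 by 5.41 and Prrx1 by 4.69, all factors of unspecialised mesenchyme. Nkx2-5, expressed in the heart and at the pylorus, was higher by 2.58 (1.06 with normexp). Wt1 and Tbx18, factors of the coelomic lining, were higher by 2.92 (1.97 with normexp) and a bound of 5.71, but over the list of mesothelial genes 3 of 14 were higher and 5 lower, with a median of -0.47 (0.10 with median centring). Pitx1, a factor of hindlimb and foregut derivatives, was the member lower by 4-fold, at -1.40 in the embryo and 5.30 in the adult. Genes that mark somite rather than gut were also present in the embryo: 16 of 24 somite and limb genes counted were higher and 1 lower. Of the 25 named members of that list, 24 were above background on the E9.5 array and 18 on the adult array. Their part in the mesenchymal result was not tested.

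Hox genes, which record position along the body axis, were on the embryo side in 21 of 32 cases and lower by 4-fold in none, with a median of 3.03 (1.88 with normexp). Among paralogues 1 to 5, 11 of 15 were at least 4-fold higher, among 6 to 9, 7 of 11, and among 10 to 13, 3 of the 6 that were counted. Hoxb9 stood at 2.43 in the embryo and -5.40 in the adult, and Hoxd4 at 3.05 and -2.71. Hoxb1 and Hoxd1 were above background in the embryo alone, at bounds of 6.04 and 5.19. Others were higher in the embryo by less than 4-fold: Hoxa7 stood at 2.16 and 1.04, Hoxb7 at 1.61 and 0.12, and Hoxa6 at -2.65 and -3.54. The HoxC cluster had the smallest median difference of the 4 clusters, with 1 of 5 counted genes higher (Hoxc9, a bound of 5.07) and a median of -0.29. Probes disagreed for Hoxa3, at -0.70 and 4.34, so its direction is uncertain. Abdominal and posterior Hox genes are active in the trunk at large, and neural tube and somite genes were present on the same array; their part in these levels was not tested.

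**Figure D3:**
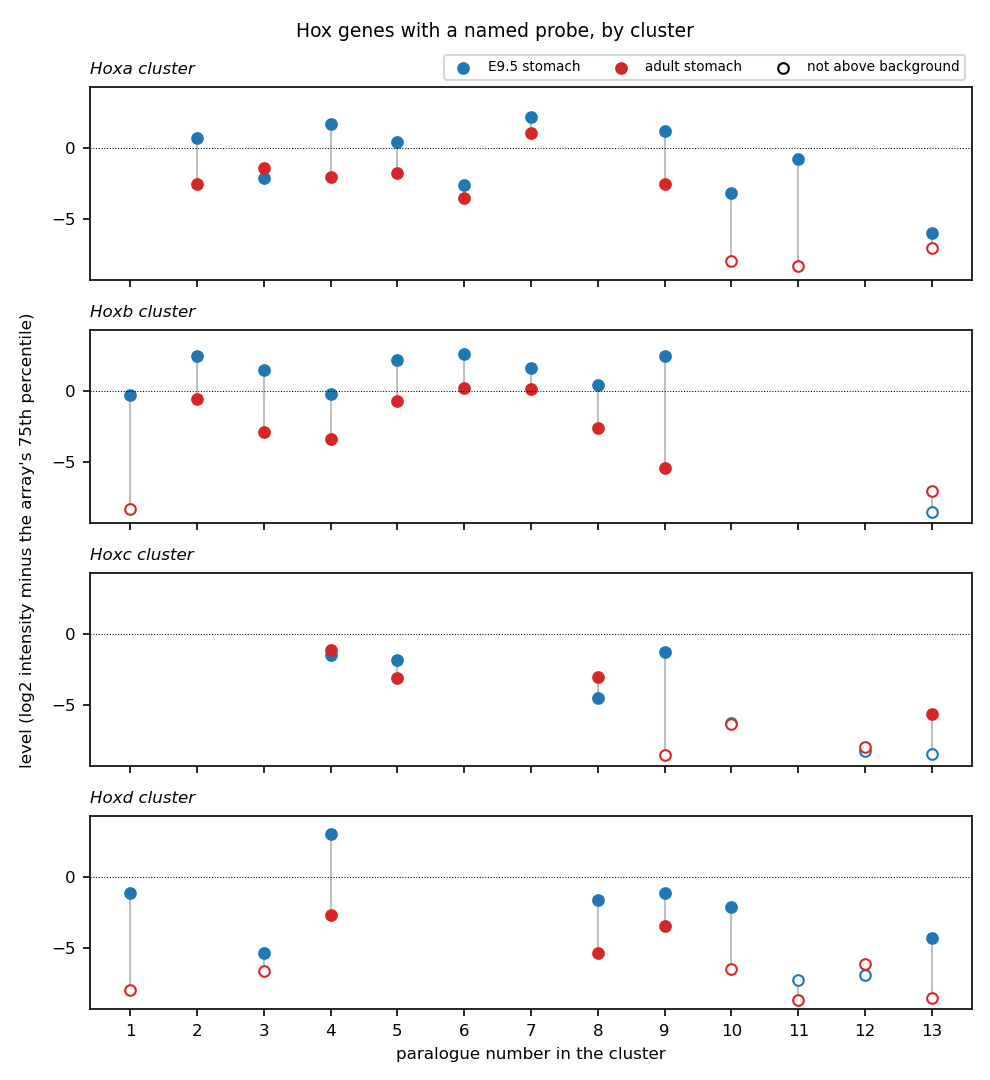
Levels (y axis, log2 intensity minus the array's 75th percentile) of Hox genes with a named probe, by cluster and paralogue number (x axis), on the E9.5 array and the adult stomach array, with open points where the gene was not above background. The E9.5 point is the higher in most pairs, for example Hoxb9 at 2.43 and -5.40, and the pairs for Hoxa7 and Hoxb7 lie closer together, under 4-fold apart.

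Other families of developmental factors were less one-sided. T-box genes had 6 of 11 higher and none lower by 4-fold; their median was 2.04, 0.38 with normexp, 0.87 with the mean over probes and -0.27 over the genes above background on both arrays. Fox genes had 8 of 37 higher and 5 lower, and a median of 0.25 (-0.19 with normexp and 0.82 with median centring), with Foxd1, a factor of stromal and somitic mesoderm, at a bound of 9.41 and Foxc2, a factor of paraxial mesoderm, at 6.69. Of 16 Sox genes 3 were higher and none lower by 4-fold; for Sox11, a factor of immature neurons and mesenchyme, the probe used gave 2.86 and further probes 7.65 to 10.3. The Gata and Irx families had 1 of 6 lower and 0 of 6 called.

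Hedgehog signalling passes from the gut endoderm, where the ligands are made, to receptors on the mesoderm. The ligand Shh was at the same level on both arrays (-0.56 and -0.61), whereas Ihh, another ligand of the pathway, stood at -3.96 in the embryo and -0.18 in the adult. The receptor Ptch1, itself a target of the pathway, stood at -0.12 and -2.45 (a difference of 1.80 with normexp), the signal transducer Smo at 5.27 and 3.02 (1.93 with the mean over probes), and the target Gli1 at -2.31 and -3.74, under 4-fold. The transcription factors Gli2 and Gli3 were higher by 4.09 and 4.25, with 2.62 and 1.84 from further probes. In all 5 of 18 pathway genes were higher and 1 lower, and the median of 1.38 was 0.64 with normexp.

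In the Wnt list, 13 of 44 genes were higher and 4 lower, with a median of 0.88 (0.40 with normexp and 1.45 with median centring). The ligand Wnt2, a signal of foregut mesoderm, stood at 1.87 in the embryo and -3.26 in the adult, and Wnt6 at 1.89 and -2.27. The antagonist Dkk1 was above background in the embryo alone, at a bound of 5.26. Lef1, a nuclear effector, was higher by 6.44, and the feedback target Axin2 by 2.30 (1.69 with normexp). Sfrp4, a secreted antagonist, and Fzd5, a receptor of gut epithelium, lay on the adult side at -4.99 and -3.55. The stem cell receptor Lgr5 stood at -1.60 and -0.50. BMP genes were nearly balanced, with 3 of 24 higher, 3 lower and a median of -0.44 that was 0.13 with median centring; the ligand Bmp4 stood at 0.74 and 0.60 and the target Id3 at 3.94 and 3.87. Bambi, a decoy receptor, was higher by 3.80 (1.69 with the mean over probes).

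Among FGF genes 4 of 20 were higher and 2 lower. Fgf10, the mesenchymal ligand of budding foregut organs, stood at -0.83 in the embryo and -3.42 in the adult (a difference of 1.47 with normexp), and Etv4, a transcriptional readout of FGF signalling, at -0.29 and -3.20. Of the Notch genes 5 of 23 were higher and 2 lower; the largest differences were those of Hes5 at 6.94 and Dll3 at 6.48, a Notch target of the neural tube and a ligand of the presomitic mesoderm, while Hes1, a target in gut endoderm, stood at -1.76 and -1.09. Of 18 retinoic acid genes 6 were higher and 5 lower, and enzymes that make retinoic acid lay on both sides. Aldh1a2, the enzyme that makes retinoic acid in embryonic mesoderm, stood at 4.44 and 0.85, the receptor Rarb at 2.08 and -1.83, the binding protein Crabp2 at 2.21 and -1.46, and Crabp1 at a bound of 10.01, while Aldh1a1, the epithelial enzyme, stood at -1.83 in the embryo and 6.40 in the adult. Guidance and adhesion molecules of neural and mesenchymal cells had 14 of 31 higher and 2 lower, with Cdh2, N-cadherin, at 0.19 and -5.92. Neural tube genes lay on the same side as several of these groups, and their part was not tested.

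Genes of cell division lay almost uniformly on the embryo side. Of 32 cell cycle genes 30 were at least 4-fold higher, none was lower, and the median difference was 4.23. Cdk1, the kinase that drives mitosis, stood at 3.09 in the embryo and -1.51 in the adult, with a further probe giving a difference of 0.85, and its partner Ccnb1 at 2.34 and -2.24. The spindle kinases Plk1 and Aurka differed by 4.78 and 4.80, the checkpoint kinase Bub1 by 5.52, and Top2a, the topoisomerase of chromosome condensation, by 5.00. The members under 4-fold were Cdk2 (1.45) and the G1 cyclin Ccnd2 (1.75). DNA replication genes had 30 of 33 higher, none lower and a median of 3.36, with the replicative helicase subunits lying between Mcm6 at 3.23 and Mcm2 at 4.43. The ribonucleotide reductase subunit Rrm2, which supplies nucleotides, differed by 5.22, and the clamp Pcna by 3.09 from an adult level of 2.85. In the list of cell cycle inhibitors 6 of 14 were lower and 1 higher: Cdkn2b, the inhibitor p15, stood at -3.42 and 4.27 and Cdkn1a, p21, at -0.16 and 3.66, while the imprinted inhibitor Cdkn1c, p57, stood at 5.99 in the embryo and 2.47 in the adult.

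In the list of oncofetal RNA-binding, Hmga and chromatin genes, 15 of 17 were higher, with a median of 4.15, and 13 of the 17 were above background in the adult. The RNA-binding proteins Lin28a, Lin28b, Igf2bp1 and Igf2bp3 were above background in the embryo alone, at bounds of 372-fold, 552-fold, 514-fold and 520-fold. For Lin28b a further probe gave a log2 difference of 6.38, against 9.11 from the probe used. The chromatin protein Hmga2 stood at 5.41 in the embryo and -1.96 in the adult, and Hmga1 at 7.82 and 4.47. The methyltransferases Dnmt1 and Dnmt3b differed by 2.73 and 4.41, and Uhrf1, the partner of Dnmt1, by 4.84. Among imprinted and fetal growth genes 13 of 23 were higher and none lower by 4-fold. Mest stood at 7.0 in the embryo and -2.27 in the adult, the growth factor Igf2 at 6.6 and 0.27, the Notch-related Dlk1 at 4.42 and -2.41, the adaptor Grb10 at 5.98 and 0.56, and Peg3 at 3.63 and -2.23. Igf1, the postnatal growth factor, lay on the adult side at -0.27 and 1.65, under 4-fold. Genes for ribosome assembly were higher in 13 of 20 cases (median 2.23), with the nucleolar proteins Ncl and Npm1 at 2.39 and 2.35. Mycn, a growth factor-driven transcription factor of embryos, is counted in the ribosome assembly list. It differed by 7.44 on the probe used and by -0.48 on another. The cytosolic ribosomal proteins themselves were level, with 1 of 72 called and a median of 0.23 (0.80 with median centring). The pluripotency factors Pou5f1 and Dppa4 were not above background on either array, and none of the 11 pluripotency genes counted was higher by 4-fold.

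**Figure D4:**
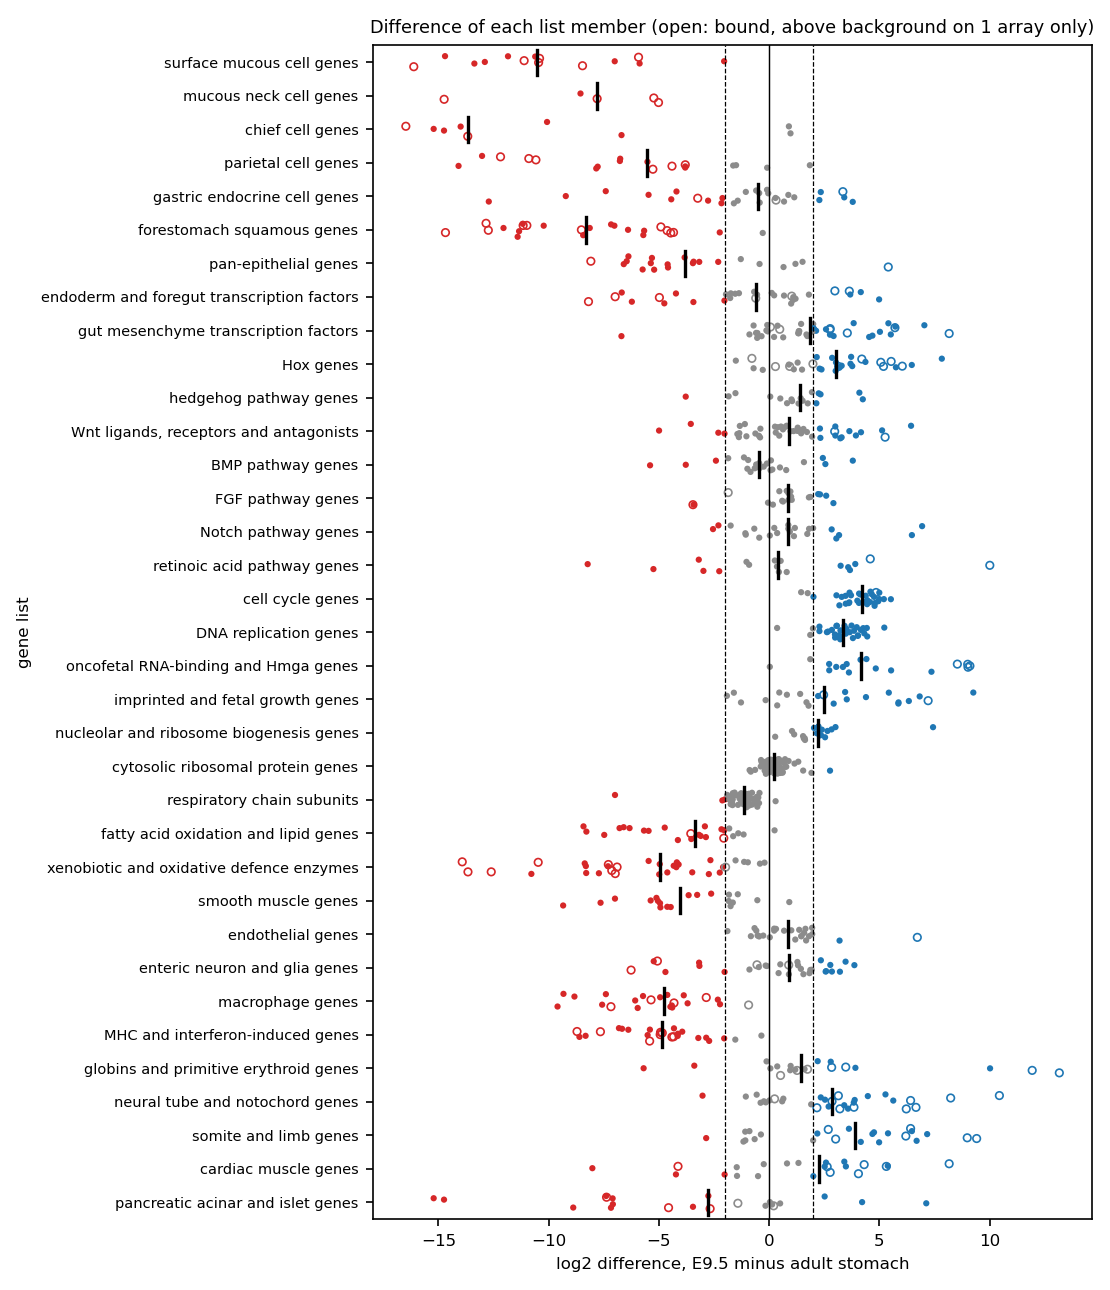
Difference of each member of 35 gene lists (x axis, log2, E9.5 minus adult stomach; y axis, the list), with filled points for genes above background on both arrays, open points for bounds, a black bar at the list's median and dashed lines at 4-fold. Cell cycle and DNA replication members cluster to the right with medians of 4.23 and 3.36, surface mucous and chief cell members lie far to the left with medians of -10.53 and -13.67, and the endocrine and retinoic acid lists spread to both sides.

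Most metabolic lists lay on the adult side, to very different degrees. Respiratory chain subunits were shifted by a small and even amount: 39 of 59 were at least 2-fold lower in the embryo but 3 by 4-fold, and none was 2-fold higher (29.8% and 27.3% over all genes), around a median of -1.15 that was -0.58 with median centring. Atp5b, the catalytic subunit of ATP synthase, stood at 7.13 and 8.39. Cox7a1, the heart and muscle form of a cytochrome oxidase subunit, was apart at -0.68 and 6.31. Fatty acid oxidation and lipid genes were lower by 4-fold in 19 of 24 cases with a median of -3.36: the carnitine transferase Cpt1a stood at -3.45 and 3.15 and the nuclear receptor Pparg at -2.98 and 3.35. Fat cell genes lay on the same side, with 10 of 13 lower and none higher. The fat cell list shares at least Cidea with the lipid list, so their counts are not independent. The lipid droplet genes Cidea and Cidec stood at -5.53 and 2.89 and at -6.20 and 2.09. The fat cell hormone Adipoq was low on the adult array, at -3.05, and not above background in the embryo (a bound of -3.39, -1.33 with normexp). The part of fat tissue was not tested. Glycolytic genes were nearly balanced with 3 of 29 higher and 4 lower; Slc2a3, the glucose transporter of embryonic and neural cells, stood at 2.95 and -2.33, the hexokinase Hk2 at 2.29 and -0.35 and Pgk1 at 7.11 and 5.09. Enzymes of drug and oxidant defence were lower in 27 of 33 cases with a median of -4.96, among them the glutathione transferase Gsta1 and the sulfotransferase Sult1c2, at bounds of 15508-fold and 12950-fold, and Cyp2s1 at -0.67 and 7.70. In the cytochrome P450 family 30 of 54 were lower and 2 higher; Cyp26a1, which degrades retinoic acid, was higher at a bound of 4.59 that fell under 4-fold, to 1.54, with normexp.

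Genes of the muscle wall lay on the adult side. Of 20 smooth muscle genes 13 were lower and none higher by 4-fold, with a median of -4.06. Myh11, the smooth muscle myosin, stood at -4.44 in the embryo and 4.90 in the adult, Cnn1, calponin, at 0.58 and 8.22, and Des, desmin, at -1.08 and 3.85. Acta2 and Tagln, early genes of this lineage, stood at 2.69 and 4.1 in the embryo and at 7.80 and 8.56 in the adult. The lineage factor Myocd differed by -1.42, under 4-fold. Kit, the receptor of the pacemaker cells of Cajal, stood at -1.0 and 0.41, and the chloride channel of those cells, Ano1, at -3.04 and 0.91. Of 26 endothelial genes 2 were higher and none lower by 4-fold, while 13 were higher and 1 lower by 2-fold, and the median of 0.84 was 0.37 with normexp and 1.41 with median centring. The endothelial cadherin Cdh5 stood at 1.23 and -0.72, the VEGF receptor Kdr at 2.91 and 0.96, and Pecam1 at -1.40 and -1.13. Etv2, the transient factor that starts the endothelial and blood lineages, was above background in the embryo alone at a bound of 6.72.

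Of 31 enteric neuron and glia genes counted, 8 were higher and 7 lower. On the adult side were the neuropeptide Vip at a bound of -6.26 and the glial protein S100b at -5.23. On the embryo side, the neuronal RNA-binding protein Elavl4 stood at 2.31 and -1.16. The receptor Ret, which guides crest cells into the gut, was low, at -5.43 in the embryo and not above background in the adult. Neural tube genes were present on the E9.5 array and their part was not tested.

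Fibroblast and matrix genes lay on both sides. Of 34 collagen chains 10 were lower and 4 higher (median -0.22, 0.35 with median centring). The fibrillar chains Col1a1, Col1a2 and Col3a1 were within 4-fold, at -1.81, -1.27 and -0.84. The type VI chains Col6a1 and Col6a2 lay on the adult side at -4.23 and -3.94. On the embryo side were Col26a1, at 4.94 and -4.75, and the cartilage-type chains Col2a1, Col11a1 and Col9a1, at 2.82, 5.02 and a bound of 7.24. Other matrix genes had 10 of 40 on each side. The fetal fibrillin Fbn2 stood at 3.05 in the embryo and -4.78 in the adult, whereas Fbn1 was level (0.34 and 0.52). The early laminin chain Lama1 was higher by 4.67 and the link protein Hapln1 by 6.12, while the small proteoglycans Ogn and Dcn differed by -10.08 and -5.40 and elastin, Eln, by -3.33 (-1.80 with normexp). Among fibroblast and pericyte genes 9 of 21 were lower and 2 higher, with Dpt, dermatopontin, at a bound of -6.82 and Pdgfra, the receptor of gut mesenchyme, at 2.65 and 0.42 (a difference of 1.84 with the mean over probes).

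Immune genes lay mostly on the adult side. Macrophage genes were lower in 21 of 22 cases (median -4.78), with the lysozyme Lyz2 at -4.11 and 5.48 and the receptor Csf1r at -3.65 and 0.74. Antigen presentation and interferon-induced genes were lower in 23 of 25 cases (median -4.85, -3.08 with normexp). The class II chain H2-Ab1 stood at -4.51 in the embryo and 3.82 in the adult. Class I genes were lower but above background, with B2m, the shared light chain, at 2.47 and 5.68. Lymphocyte and mast cell genes were lower in 19 of 29 cases (median -2.59, -1.28 with normexp), with 15 of 29 above background in the embryo and 29 in the adult; the exception was Lck at -0.12 and -2.65 (a difference of 1.87 with normexp). Secreted mucosal defence genes were lower in 13 of 20 cases, led by Bpifb1 at -13.21 and the protease inhibitor Slpi at -9.32. Saa2, a serum amyloid, was higher by 5.17.

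Globin genes differed by stage. The embryonic chains made by yolk sac red cells lay on the embryo side: Hbb-bh1 stood at 6.85, Hba-x at 5.62 and Hbb-y at 6.43. In the adult Hbb-bh1 and Hba-x were not above background, at least 9175-fold and 3910-fold lower, and Hbb-y stood at -3.59, a difference of 10.02. The adult beta chain Hbb-bt went the other way, at -0.52 in the embryo and 5.18 in the adult. The alpha chain Hba-a1, used at both stages, stood at 5.15 and 5.09. Its copies and those of the beta chains are near identical, so single members are uncertain. Klf1, a factor of red cell formation, stood at -0.95 and -4.86 (a difference of 1.88 with normexp). Over the list 8 of 20 genes were higher and 2 lower, and 20 were above background in the embryo against 13 in the adult.

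Genes of tissues next to the stomach were checked on both arrays. On the E9.5 array 31 of 34 named neural tube and notochord genes were above background, against 20 on the adult array, and 20 of 31 counted were at least 4-fold higher with 1 lower; their median of 2.85 was 0.67 with normexp. Zic1, a factor of dorsal neural tube and somite, stood at 4.13 and Lhx2, a factor of forebrain and limb, at 1.92, both above background in the embryo alone. Pax3, of dorsal neural tube and somite, stood at 0.10 and Nkx6-1, a factor of the ventral neural tube, at 2.33. Sox1, a pan-neural factor, was at -4.31 and -3.92 on the embryonic and adult arrays. Of the somite genes, Pax1 stood at 2.67, Tcf15 at 3.09, Foxc2 at 2.01 and Meox1 at 2.84 on the E9.5 array, between 4.76 and at least 8.99 above the adult on the log2 scale, although a further Pax1 probe gave 1.53. The myogenic factor Myf5 was not above background on either array, while Myog was at -0.07 in the embryo alone. Heart genes had 12 of 22 higher and 4 lower (median 2.26, 0.92 with normexp): Tnnt2, a troponin of embryonic heart, stood at 1.48 and -2.0 and Myh6 at -1.72 and -4.24 (a difference of 0.98 with normexp), but the adult form Tnni3 at -2.82 and 5.20.

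Genes of the endodermal neighbours of the stomach lay mostly on the adult side: 11 of 20 hepatocyte genes were lower and none higher, 12 of 19 intestinal epithelium genes lower and 1 higher, and 9 of 16 lung epithelium genes lower and 3 higher. The medians of these lists, -2.19, -2.83 and -2.80, were -1.38, -1.83 and -1.32 with normexp, each under 4-fold. The fetal liver gene Afp was at -2.14 in the embryo and -1.33 in the adult, and Alb was not above background in the embryo, a bound of -4.07 (-1.82 with normexp). The pancreatic carboxypeptidase gene Cpa1 was higher in the embryo, at -1.34 against -5.56, but under 4-fold with normexp, at 1.69. Some members went against most of their lists. The intestinal factors Cdx1 and Cdx2 stood at -2.68 and -5.29 in the embryo and were not above background in the adult, and Nkx2-1 of lung and thyroid stood at -3.33. With normexp the difference of Cdx1 was 0.90. The bound of Cdx2 was 1.03, under 4-fold, and its difference was 0.00 with normexp. On the adult side Apoa1, an apolipoprotein of liver and gut, stood at 5.37, the intestinal gene Lypd8 at 6.77 and the lung secretory gene Cyp2f2 at 4.04, none above background in the embryo. Whether dissection included neighbouring tissue was not given in the sources used here, and its part in any list was not tested.

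**Figure D5:**
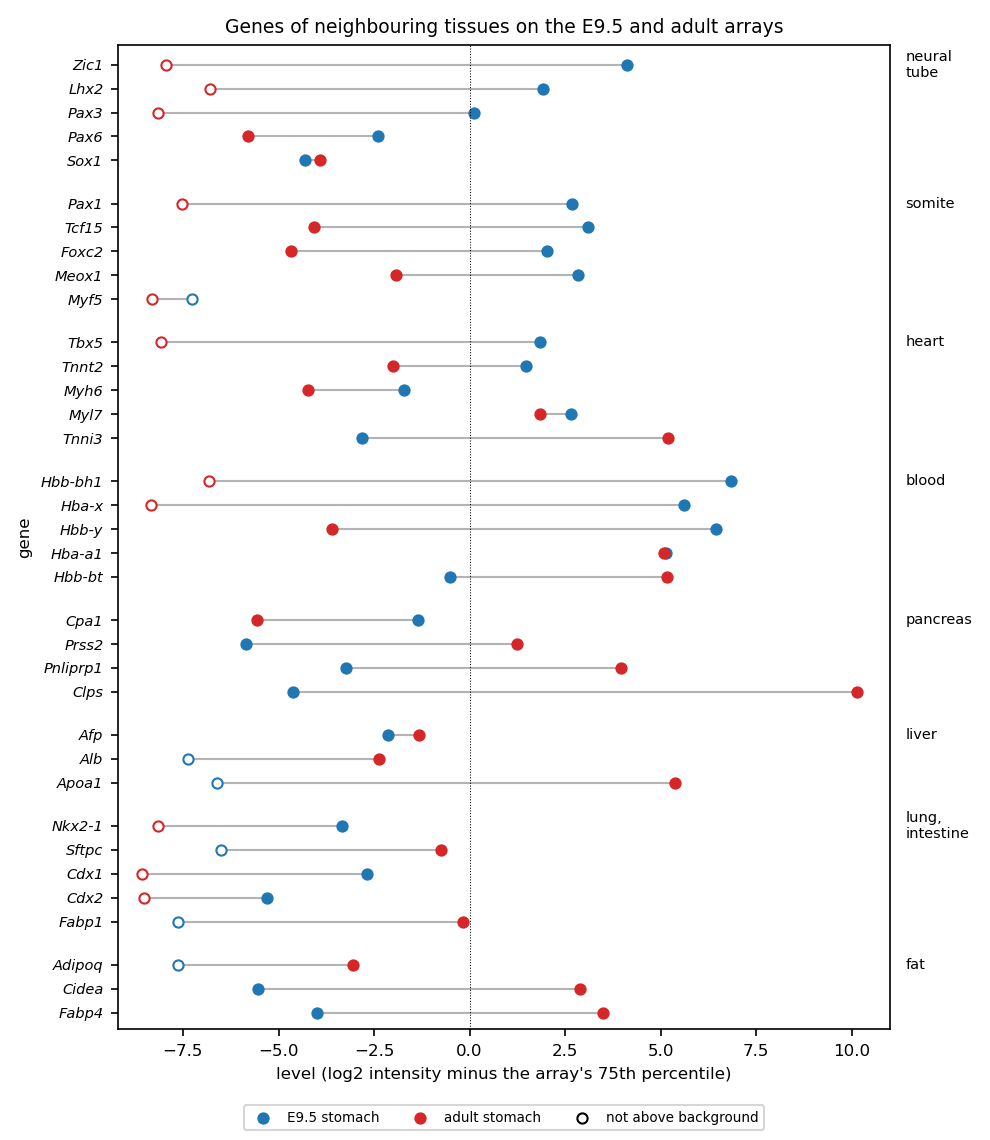
Levels (x axis, log2 intensity minus the array's 75th percentile) of genes of neighbouring tissues (y axis) on the E9.5 array and the adult stomach array, with open points where a gene was not above background. Zic1 at 4.13 and Hbb-bh1 at 6.85 are among the genes higher on the E9.5 array, and Clps at 10.13 and Cidea at 2.89 among those higher on the adult array.

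Some genes that respond to tissue handling also differed. Of 23 immediate early and heat shock genes 7 (30.4%, against 18.1% of all genes) were lower in the embryo and none higher by 4-fold. By 2-fold 8 were lower and 2 higher, and the list's median of -0.50 was 0.00 with median centring. Among the lower members were Fos at -5.37 and -0.27, Hspa1a at -2.97 and 3.12 and Egr1 at -1.21 and 0.81 (a difference of -1.45 with median centring). Their part in other differences was not tested.

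Beyond the lists, the genes with large differences on the embryo side included Asb4, an ankyrin and SOCS box protein of embryonic vessels, at 4.42 and -5.51, the immunoglobulin-family protein Prtg, protogenin, at a bound of 10.20, and Fndc3c1 at a bound of 10.45. The mitosis gene Pimreg, the corepressor Rcor2, the RNA-binding protein Mex3a and the enzyme Bcat1 differed by 6.91, 6.44, 6.22 and 6.35. A further Bcat1 probe gave 4.76. The organ-forming factor Eya1 stood at 0.99 and -5.40. On the adult side were the secretory cell gene Agr2, at a bound of -13.09, the lectins Lgals2 and Lgals4, at a bound of -13.29 and at -11.54, the squamous surface proteins Ly6d and Lypd3, at a bound of -12.99 and at -11.94, and the stress protein Nupr1 at -10.88.

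The 2 sets of called genes were then followed on arrays that the comparison had not used: the level in the ES-derived tissue minus the mean of adult esophagus, lung and intestine. In the day 42 tissue, 20.7% of all 15075 genes exceeded that mean by 2-fold or more and 20.8% fell short of it by as much, with a median of 0.04. Of the genes higher in the E9.5 stomach that could be counted (1623 of 1736), 34.4% were higher and 13.5% lower, with a median of 0.57. Of the genes lower in the E9.5 stomach (2668 of 2739), 22.3% were higher and 36.5% lower, with a median of -0.41 (0.05 with median centring, where the median of all genes was 0.56). In the day 46 tissue the shares over all genes were 17.4% and 21.2% with a median of 0.00. The genes higher in the E9.5 stomach had shares of 28.9% and 15.6% there (median 0.33), and those lower in it 19.6% and 36.7% (median -0.42). The medians of both sets thus lay on the side of the E9.5 stomach, although the share of the lower set that was at least 2-fold higher, 22.3% and 19.6%, was also slightly above that of all genes. The 3 adult organs shared a slide with the adult stomach, and the part of the slide was not tested. Single genes showed both sides: Igf2bp1, at 2.69 in the embryo, stood at -1.88 in the day 42 and -0.89 in the day 46 tissue, and Tff1, at -4.26 in the embryo, stood at 4.36 in the day 42 and 6.19 in the day 46 tissue.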

How the data were processed

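Total RNA of each tissue was labelled with Cy3 and hybridised to a one-colour Agilent array, per the labels' protocols. RNA was prepared with RNeasy Mini or Isogen, and which sample had which kit was not given in the sources used here. The deposited scanner files hold background-subtracted processed intensity per spot, from Feature Extraction 10.5.1.1 per the file headers (10.5 per the submitters' processing notes). The authors' deposited value table, log2 intensity with column medians of -3.43 (E9.5) and -2.86 (adult), as computed here, served as an alternative.

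Here control and outlier spots were left out, log2 intensity minus the array's 75th percentile was taken, spots of a probe were averaged, and each gene was represented by the probe with the highest mean level over the 7 arrays. Of 41174 probes, 24375 were named through RefSeq accessions and 57 through symbols; 16742 stayed unnamed. Array signal over background, not counting depth, limits precision. A call is a 4-fold difference with no test. Any member of a fixed list could be named, and outside the lists the 30 genes with the largest differences on each side and the 20 with the largest bounds; the members and lists were chosen with earlier results of these data known. The steps were tested on simulated data. Python 3.11.15, numpy 2.4.6, pandas 2.3.3, R 4.3.3 and limma 3.58.1 were used. Some genes are not reported here.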

Additional observations from a re-analysis of the deposited data

How the results depend on the processing

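With 1 array per side no library could be left out, and no test was available to gain or lose. No paired analysis was possible because each group holds 1 array. At 2-fold in place of 4-fold, 4120 genes were higher and 4491 lower in the E9.5 stomach; with median centring 2881 were higher. The other alternatives (quantile normalization, the authors' deposited table, normexp, no filter on background, genes above background on both arrays, and the mean over probes) gave between 1169 and 1935 higher and 1942 and 3016 lower calls. Of 62 list medians, 50 kept their sign in every alternative and 12 did not; of the 32 of at least 4-fold, the T-box median alone changed sign, to -0.27 over genes above background on both arrays, a setting that drops the genes seen in the embryo alone. Normexp, run with an offset of 50 added to each intensity, which by construction draws dim differences toward 0, brought 52 list medians nearer to 0. It moved 153 of 259 named gene differences by more than the spread between probes of a gene, and 95 moved by no more than that under any alternative run on them. Of 216 named genes at least 4-fold apart, 22 fell under 4-fold with normexp, 4 with median centring, 4 with the mean over probes and 2 with quantile normalization, and none with the others where they gave a value. Signal over background limits the dim genes: the lowest level above background was -6.43 on the E9.5 array and -6.32 on the adult array.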
